A study of Mus musculus with 8 samples.

Results

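The genes described here are 37 mouse genes that license replication origins, unwind DNA, copy it, join the lagging strand and repackage the new chromatin. They were taken by name from a list of replication proteins, which was chosen with earlier results of these data known. Each was found on the array by matching the probe's RefSeq accession to the gene's accessions. All 37 were found, among 18883 gene symbols so matched, and 44 probes represent them. Every one was well above background in both colours on all 8 arrays. Their level was followed in cells of PyMT tumours under camptothecin, in which the protein Snd1 or its partner Mtdh had been altered.

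Replication is prepared before S phase, when the origin recognition complex, with Cdc6 and Cdt1, loads the ring-shaped MCM helicase onto DNA in an inactive form. The Cdc7 kinase with its partner Dbf4, Mcm10, Cdc45 and the GINS complex then turn the loaded ring into a moving helicase. Primase starts each new strand, polymerase epsilon and polymerase delta extend the leading and lagging strands on the sliding clamp Pcna, and Fen1 and Lig1 process and seal the Okazaki fragments. Many genes of this machinery are known targets of the E2F transcription factors in cycling cells. Camptothecin traps topoisomerase I on DNA and thereby damages moving forks. PyMT is the polyoma middle T oncogene, widely used to drive mammary tumours in mice. Snd1 is an RNA-binding protein with nuclease-like domains, and Mtdh is a protein that binds it.

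Each array compared a test RNA, labelled with Cy5, with Universal Mouse Reference RNA, a mix of 11 cell lines labelled with Cy3. Values below are log2 ratios of Cy5 over Cy3, so a difference of 1 between groups is a change of 2-fold. In the first experiment, cells of WTA, a PyMT tumour line of genotype wild type and strain FVB, carried either the hairpin construct LKO1-shSnd1 (3 arrays, called knockdown) or the empty construct LKO1 (3 arrays, called vector), and both were selected with puromycin. In the second experiment, cells of KO2, a PyMT tumour line of genotype MTDH-KO and strain FVB, were given back Mtdh by LmPGK-mMtdh-ires2-GFP (1 array) or the point mutant W391D, described in the series design as unable to bind Snd1, by LmPGK-mMtdhspm13-ires2-GFP (1 array). Those cells were sorted for GFP. All 4 groups had been kept in 50 uM camptothecin for 36 h, and untreated cells were not analysed here. Each experiment rests on 1 tumour line, the vector labels name no control hairpin, and the labels give neither the promoter of the PyMT transgene nor the age of the mice. Nothing in them says whether replicates were separate cultures, so the p-values cover array-to-array spread alone, and that spread may be technical.

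The arrays had a median Cy5 signal of 158 to 363 over a median local background of 61 to 72, and of 43379 spots other than controls, 78.02% to 88.47% exceeded background clearly in Cy5. Knockdown 1 and vector 1 shared a slide, the other 4 arrays of that experiment shared a second slide, and the rescue arrays came from separate further slides. Snd1 itself read -2.49, -2.40 and -2.43 on the vector arrays and -3.23, -3.33 and -3.44 on the knockdown arrays. It was lower by 0.90 ± 0.06 (SE, n = 3 per group; limma, adjusted p = 1.03e-05), a 1.86-fold difference, although after scaling the spread of values between arrays the difference was 0.02 (limma, adjusted p = 0.977; range over 21 alternatives 1.41e-06 to 0.977). Luminal epithelial markers were above background on all 6 arrays for 13 of 13 genes tested. The mean log2 ratio of those markers was 1.51 to 1.59 in knockdown and 1.84 to 1.95 in vector cells, with 8 lower and 3 higher. Of 10 fibroblast markers tested, 7 were higher in knockdown cells and 3 were not called. Among all features tested, 23.6% were called higher and 21.1% lower, by the rule given below. The mean log2 ratio of the 11 fibroblast markers on the array was -2.76 to -2.70 in knockdown and -3.66 to -3.62 in vector cells. That shift was uneven, with 4 markers higher by at least 2-fold, up to 2.72 for Postn, and a median difference of 0.30 over the 10. Both shifts accompany the replication gene results that follow, and their part in those results was not tested. In bulk RNA, fewer cells of a type and less RNA per cell cannot be told apart.

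In the knockdown cells, 30 of the 37 replication genes were lower, 2 were higher (Pcna and Slbp) and 5 did not pass the test (Orc6, Cdc6, Pola2, Fen1 and Uhrf1). A gene was called at an adjusted p under 0.05 in limma, and among all 25904 features tested 21.1% were lower and 23.6% higher by the same rule, 44.8% in all. Those features include probes without a gene name, and of the 17225 named genes tested 4411 were lower and 4465 higher. With scaling between arrays 21 of the 37 were lower and 1 higher, and of all features 3769 were lower and 4761 higher. The median difference of the 37 genes was -0.47, against 0.02 over all features. The 3 knockdown arrays lay wholly below the 3 vector arrays for 30 genes, where 24.5% of all features had that order. They lay wholly above for 3 genes, Pcna, Slbp and Fen1. In either order the groups were apart for 33 of the 37 genes and for 53.2% of all features. Within a group the arrays were close, with an SD of 0.004 to 0.203 across the 37 genes. Among the genes called lower, 15 fell by at least 1.5-fold, which 5.81% of all features did, and 2 of these, Prim1 and Rfc5, fell by at least 2-fold, which 1.51% of all features did. On the first slide alone the median was -0.48 and on the second -0.47, and the 30 genes called lower were below zero on both.

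**Figure D1:**
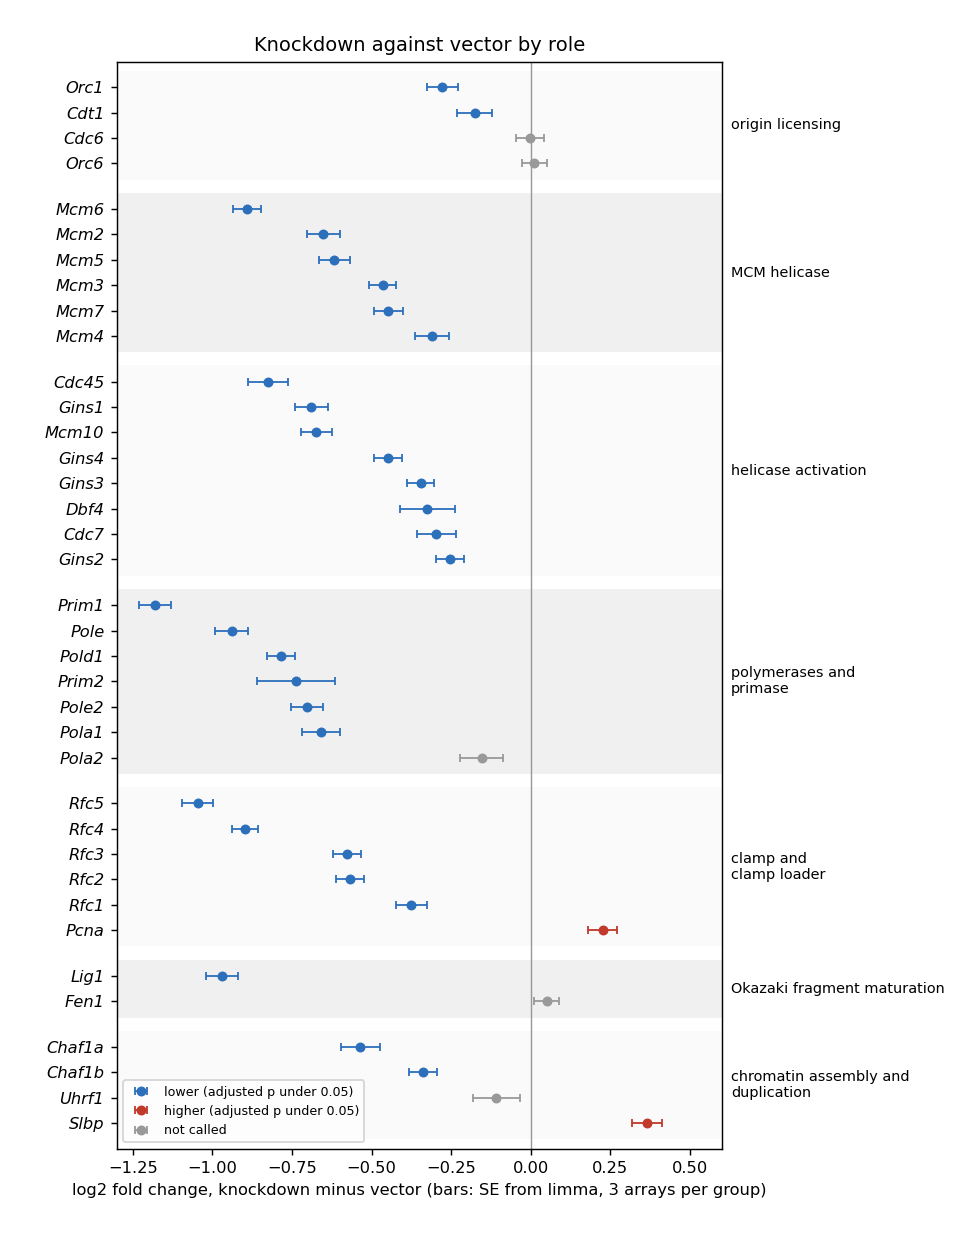
Difference in log2 ratio, knockdown minus vector, for each of the 37 genes, grouped by role. Points are limma estimates with bars of ± 1 SE (n = 3 arrays per group), and the colour gives the call at an adjusted p under 0.05. All MCM helicase and helicase activation genes lie left of zero (Gins2 turned to 0.02 with scaling between arrays), while Pcna and Slbp lie right of it.

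**Figure D2:**
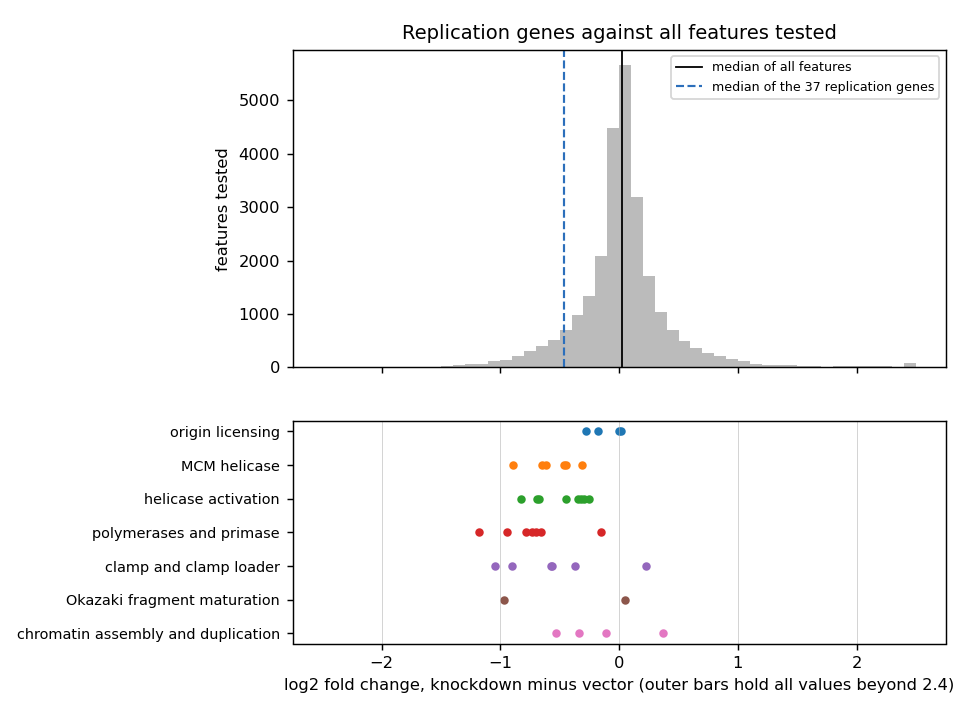
The upper panel counts all 25904 features tested by their difference in log2 ratio, knockdown minus vector, with lines at the median of all features (0.02) and of the 37 genes (-0.47). The lower panel places each of the 37 genes on the same axis by role, from -1.18 for Prim1 to 0.37 for Slbp.

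Promoters are shown because many genes of the list moved together, for 3 genes that fell and carry E2F octamers (Mcm6, Mcm5 and Pola1), for a gene that fell by more than 2-fold (Prim1) and for both genes that rose (Pcna and Slbp). The sequences are the 250 bases before the transcription start from RefSeq, build GRCm38.p6, printed 5′ to 3′ on the gene's strand, and come from the reference genome rather than from FVB cells. Capitals mark any of the octamers TTTCGCGC, TTTGGCGC, TTTCCCGC or TTTGCCGC, which are E2F-type letters, and the box CCAAT, each read on either strand. Overlapping matches were each counted and appear as 1 longer capital run.
Mcm6 (chr1:128359706-128359955, minus strand): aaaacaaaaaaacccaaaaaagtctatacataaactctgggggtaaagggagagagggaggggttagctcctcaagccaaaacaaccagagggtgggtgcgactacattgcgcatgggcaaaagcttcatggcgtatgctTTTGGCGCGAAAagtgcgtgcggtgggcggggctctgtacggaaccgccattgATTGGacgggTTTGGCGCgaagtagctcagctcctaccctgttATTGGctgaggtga
Mcm5 (chr8:75109259-75109508, plus strand): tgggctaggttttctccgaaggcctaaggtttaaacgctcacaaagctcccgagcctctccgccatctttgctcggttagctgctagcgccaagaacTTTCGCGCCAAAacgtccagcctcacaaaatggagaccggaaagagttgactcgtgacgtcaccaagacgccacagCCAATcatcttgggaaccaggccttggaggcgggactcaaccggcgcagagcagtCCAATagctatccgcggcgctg
Pola1 (chrX:93632156-93632405, minus strand): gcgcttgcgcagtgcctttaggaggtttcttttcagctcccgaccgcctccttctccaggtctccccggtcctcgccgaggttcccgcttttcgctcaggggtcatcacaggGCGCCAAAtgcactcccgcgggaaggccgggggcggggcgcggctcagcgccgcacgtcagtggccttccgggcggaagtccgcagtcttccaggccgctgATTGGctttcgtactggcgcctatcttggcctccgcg
Prim1 (chr10:128014965-128015214, plus strand): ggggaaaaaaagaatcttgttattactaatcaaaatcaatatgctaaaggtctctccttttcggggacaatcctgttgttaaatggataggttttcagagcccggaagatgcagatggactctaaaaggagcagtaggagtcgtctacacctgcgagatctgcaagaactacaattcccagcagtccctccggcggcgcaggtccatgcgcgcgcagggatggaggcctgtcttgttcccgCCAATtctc
Pcna (chr2:132253181-132253430, minus strand): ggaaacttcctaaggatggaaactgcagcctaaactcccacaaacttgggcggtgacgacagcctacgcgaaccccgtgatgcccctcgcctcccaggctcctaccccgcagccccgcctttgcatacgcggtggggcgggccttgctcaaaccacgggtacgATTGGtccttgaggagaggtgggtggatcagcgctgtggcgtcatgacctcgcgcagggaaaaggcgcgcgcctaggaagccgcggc
Slbp (chr5:33652575-33652824, minus strand): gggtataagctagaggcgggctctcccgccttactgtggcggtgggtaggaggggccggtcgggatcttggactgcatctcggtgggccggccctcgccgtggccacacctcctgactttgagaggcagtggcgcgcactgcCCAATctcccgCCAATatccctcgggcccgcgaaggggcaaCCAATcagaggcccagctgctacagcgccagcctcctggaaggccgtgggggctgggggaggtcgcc

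Mcm6 held 3 octamers, of which 2 overlap, and 2 CCAAT boxes. Mcm5 held 2 overlapping octamers and 2 CCAAT boxes, and Pola1 held 1 of each. None of the octamers was in the Prim1, Pcna or Slbp stretch, where CCAAT occurred 1, 1 and 3 times. Windows of 300 bases, from 250 before to 50 after the start, were in the RefSeq table for 30 of the 37 genes (not Gins1, Gins2, Gins4, Mcm4, Pole, Prim2 or Rfc2). Of these 30 genes, 14 held an octamer (46.7%), against 2.6% of 27025 genes with a window and 3.29% of 17492 protein-coding ones. CCAAT was in 18 of the 30 (60.0%), against 41.1% of all genes. Of the 14 genes with an octamer, 12 were called lower and the median difference was -0.52. Of the 16 without, 11 were called lower and the median was -0.36. These are matches of letters and say nothing of binding, and the difference between those sets was not tested.

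Of the 4 origin licensing genes, 2 were lower and 2 were not called, and their median difference was -0.09. Orc1, the largest subunit of the origin recognition complex, read 0.22, 0.21 and 0.29 on the vector arrays and -0.11, -0.01 and -0.01 on the knockdown arrays. All knockdown values were below all vector values, a difference of -0.28 ± 0.05 (SE, n = 3 per group; limma, adjusted p = 0.00203). Cdt1, which brings the MCM ring to the origin, read 0.53, 0.50 and 0.43 in vector and 0.40, 0.30 and 0.23 in knockdown cells. Its groups did not overlap either, but the difference of -0.18 ± 0.06 was small (limma, adjusted p = 0.0337). Over 21 alternatives the adjusted p of Cdt1 ran from 0.00881 to 0.419 and 12 of them kept the call. Leaving out knockdown 2, knockdown 3, vector 1 or vector 2 lost it (limma, adjusted p = 0.0953, 0.114, 0.0885 and 0.092). Orc6, the smallest subunit of the complex, differed by 0.01 ± 0.04 (limma, adjusted p = 0.839).

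Cdc6, the ATPase that loads the MCM ring with the origin recognition complex, gave different answers from its 2 probes. The brighter probe read 0.43, 0.36 and 0.39 on the vector arrays and 0.36, 0.41 and 0.41 on the knockdown arrays, and these values were intermingled (difference -0.00 ± 0.04 SE; limma, adjusted p = 0.973). The dimmer probe read 1.23, 1.28 and 1.31 in vector and 0.60, 0.59 and 0.57 in knockdown cells. By that probe every knockdown array was lower, by 0.69 ± 0.04 (SE, n = 3 per group; limma over all probes, adjusted p = 5.5e-06). Both probes name the same RefSeq transcript, and which of them tracks the gene was not tested. With the mean of both probes Cdc6 was lower by 0.35 (limma, adjusted p = 0.000148; range over 21 alternatives 0.000148 to 0.987).

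All 6 subunits of the MCM helicase were lower in knockdown cells, with a median difference of -0.54 and a range from -0.31 for Mcm4 to -0.89 for Mcm6. Mcm6 read -0.36, -0.27 and -0.32 on the vector arrays and -1.21, -1.20 and -1.22 on the knockdown arrays. The 3 knockdown values lay close together and well below the vector values, a difference of -0.89 ± 0.04 (SE, n = 3 per group; limma, adjusted p = 1.69e-06). Mcm2 read 0.47, 0.46 and 0.38 in vector and -0.15, -0.21 and -0.30 in knockdown cells, and Mcm5 read 0.46, 0.43 and 0.41 and -0.12, -0.18 and -0.25. On all 3 knockdown arrays both subunits were below every vector array, with differences of -0.65 ± 0.05 for Mcm2 (limma, adjusted p = 2.48e-05) and -0.62 ± 0.05 for Mcm5 (limma, adjusted p = 1.92e-05). Mcm3 read 0.82, 0.84 and 0.76 in vector and 0.36, 0.33 and 0.35 in knockdown cells, a difference of -0.47 ± 0.04 (limma, adjusted p = 5.11e-05). Mcm7 was lower by 0.45 and Mcm4 by 0.31, and after scaling between arrays these calls were lost (limma, adjusted p = 0.276 for Mcm7, from 2.26e-05 over 21 alternatives, and 0.14 for Mcm4, from 0.000375).

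The 8 genes that activate the helicase were all lower, with a median difference of -0.40, although Gins2 turned to 0.02 with scaling between arrays (limma, adjusted p = 0.924; range over 21 alternatives 0.000478 to 0.924). Cdc45, a subunit of the moving helicase, read 0.86, 1.05 and 1.03 on the vector arrays and 0.11, 0.22 and 0.14 on the knockdown arrays. The groups were well apart, with a difference of -0.83 ± 0.06 (SE, n = 3 per group; limma, adjusted p = 1.54e-05). Mcm10, which binds the helicase when it is activated, read 0.85, 0.76 and 0.76 in vector and 0.11, 0.16 and 0.08 in knockdown cells, a difference of -0.67 ± 0.05 (limma, adjusted p = 1.19e-05). Gins1, a subunit of the GINS complex, read -0.75, -0.75 and -0.73 in vector and -1.36, -1.52 and -1.43 in knockdown cells. It was lower on every knockdown array, with a difference of -0.69 ± 0.05 (limma, adjusted p = 1.59e-05), and its second probe differed by -0.61. The other GINS subunits fell less, by 0.25 for Gins2, 0.35 for Gins3 and 0.45 for Gins4. After scaling between arrays Gins1 was at -0.35 and not called (limma, adjusted p = 0.115; range over 21 alternatives 2.76e-06 to 0.115).

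The kinase that fires origins was lower in both its parts by smaller amounts. Cdc7, the catalytic subunit, read -0.67, -0.74 and -0.74 on the vector arrays and -1.13, -0.95 and -0.96 on the knockdown arrays with its brightest probe. These groups did not overlap, and the difference was -0.30 ± 0.06 (SE, n = 3 per group; limma, adjusted p = 0.00431). Its second probe read 0.10, 0.01 and 0.01 in vector and -0.01, -0.07 and 0.00 in knockdown cells. Those groups were only just apart, and the difference of -0.065 was not called (limma over all probes, adjusted p = 0.324). Its dimmest probe read 0.20, 0.16 and 0.12 in vector and -0.01, 0.01 and -0.08 in knockdown cells, a difference of -0.18 (limma over all probes, adjusted p = 0.0137). Dbf4, the activating subunit, differed by -0.33 ± 0.09 (limma, adjusted p = 0.0148). Within slides the sizes were unequal, -0.60 on the first (1 array per group) and -0.19 on the second for Dbf4, and -0.46 and -0.21 for Cdc7. After scaling between arrays neither was called, Cdc7 being at -0.05 (limma, adjusted p = 0.86, from 0.000449 over 21 alternatives) and Dbf4 at -0.35 (limma, adjusted p = 0.0702, from 0.00102).

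**Figure D3:**
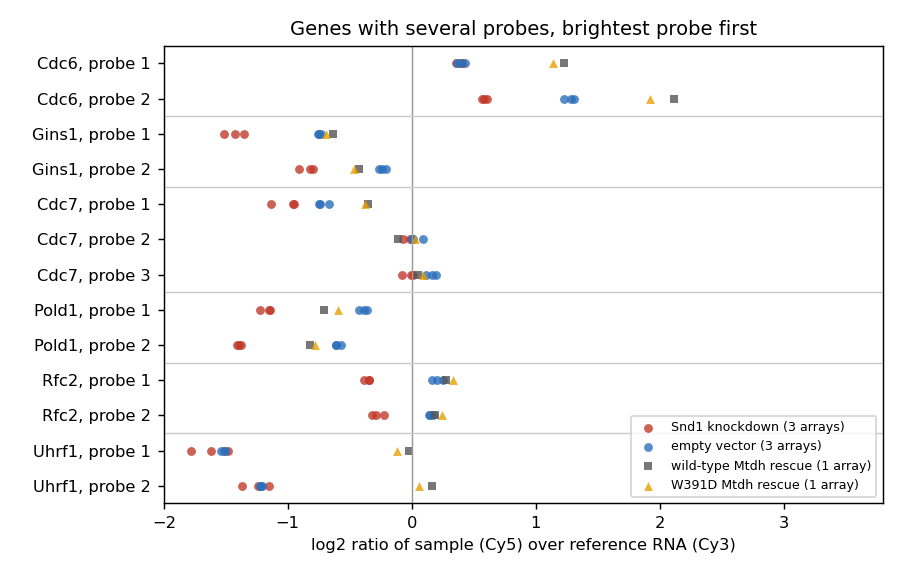
Log2 ratio of sample over reference RNA on each of the 8 arrays for every probe of the 6 genes with more than 1 probe, brightest probe first. Each point is 1 array, coloured by group. For Cdc6 the knockdown and vector points coincide at the first probe and lie 0.69 apart in the mean at the second, while both probes of Pold1 show knockdown below vector, by 0.78 and 0.80.

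Of the 7 polymerase and primase genes 6 were lower, with a median difference of -0.74. That was the lowest median of the 7 roles here and under 22 of 23 alternatives, but with scaling between arrays it was -0.61, above those of the clamp and its loader (-0.70) and the MCM helicase (-0.66). Alternatives that changed only the threshold, the block, the error model or the probe filter left the role medians as they were. Such settings could not alter this order, nor that of the single genes below, so the count overstates the checks made. Prim1, the catalytic subunit of primase, read -0.42, -0.37 and -0.34 on the vector arrays and -1.61, -1.49 and -1.57 on the knockdown arrays. Its groups were separated by more than 1 log2 unit, and the difference of -1.18 ± 0.05 (SE, n = 3 per group; limma, adjusted p = 8.15e-07), or 2.27-fold, was the lowest of the 37 genes here and under 22 of 23 alternatives. With scaling between arrays Prim1 and Rfc5 were both at -0.91, short of 2-fold, and Cdc45 was lower at -1.02. Of all features, 0.845% had a lower difference than Prim1. Pole, the catalytic subunit of the leading-strand polymerase epsilon, read -0.70, -0.66 and -0.61 in vector and -1.67, -1.56 and -1.57 in knockdown cells, a difference of -0.94 ± 0.05 (limma, adjusted p = 2.82e-06). After scaling between arrays Pole was at -0.61 and not called (limma, adjusted p = 0.0794; range over 21 alternatives 1.49e-07 to 0.0794). Pold1, the catalytic subunit of the lagging-strand polymerase delta, read -0.42, -0.38 and -0.36 in vector and -1.15, -1.14 and -1.22 in knockdown cells. Every knockdown array was below every vector array, with a difference of -0.78 ± 0.05 (limma, adjusted p = 3.81e-06), and its second probe differed by -0.80.

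Within the complex of polymerase alpha and primase, the differences ran from -1.18 for Prim1 to -0.15 for Pola2. The regulatory primase subunit Prim2 differed by -0.74 ± 0.12 (limma, adjusted p = 0.00137), with the largest SE of the list. Prim2 read 0.81, 0.48 and 0.46 on the vector arrays and 0.08, -0.26 and -0.28 on the knockdown arrays. In both groups replicate 1, on the first slide, was the highest, and the difference within slides was -0.73 and -0.74. Pola1, the catalytic polymerase alpha subunit, differed by -0.66 ± 0.06 (limma, adjusted p = 4.67e-05), but by -0.02 after scaling between arrays (limma, adjusted p = 0.968; range over 21 alternatives 2.1e-06 to 0.968). Pola2, the accessory subunit, differed by -0.15 ± 0.07 and was not called (limma, adjusted p = 0.101). Blocking on replicate number called Pola2 lower, at -0.15 ± 0.04 (SE; limma, adjusted p = 0.0216; range over 21 alternatives 0.0126 to 0.302, with 5 of them calling it lower). Pole2, the accessory subunit of polymerase epsilon, fell by 0.70.

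The sliding clamp rose while its loader fell, although the call on the clamp depended on the normalization. All 5 subunits of the loader, replication factor C, were lower, from -0.38 for Rfc1 to -1.05 for Rfc5. Rfc5 read -0.04, 0.03 and 0.09 on the vector arrays and -1.03, -1.04 and -0.99 on the knockdown arrays, and Rfc4 read 0.41, 0.42 and 0.36 and -0.48, -0.50 and -0.52. For both genes the knockdown values were well below the vector values, with differences of -1.05 ± 0.05 for Rfc5 (SE, n = 3 per group; limma, adjusted p = 1.38e-06) and -0.90 ± 0.04 for Rfc4 (limma, adjusted p = 1.32e-06). Rfc3 read 1.01, 1.04 and 1.03 in vector and 0.43, 0.50 and 0.41 in knockdown cells, a difference of -0.58 ± 0.05 (limma, adjusted p = 1.86e-05). Rfc2 fell by 0.57, and its second probe by 0.43. Rfc1, the largest subunit, lost its call with scaling between arrays, at -0.19 (limma, adjusted p = 0.328; range over 21 alternatives 4.01e-05 to 0.328).

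Pcna, the clamp that this loader places on DNA, read 0.37, 0.37 and 0.33 on the vector arrays and 0.54, 0.58 and 0.64 on the knockdown arrays. All knockdown values were above all vector values, a difference of 0.23 ± 0.05 (SE, n = 3 per group; limma, adjusted p = 0.00387). The direction was the same in all 21 alternatives and 18 kept the call, with an adjusted p between 0.00109 and 0.544. The call was lost with median centring (0.20), with scaling between arrays (0.08) and with Cy5 alone (0.14). Of all features, 80.8% had a lower difference than Pcna.

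Of the enzymes that finish the lagging strand, Lig1 fell and Fen1 did not pass the test. Lig1, the ligase that seals Okazaki fragments, read -0.29, -0.24 and -0.26 on the vector arrays and -1.31, -1.18 and -1.20 on the knockdown arrays. Its groups were apart, with a difference of -0.97 ± 0.05 (SE, n = 3 per group; limma, adjusted p = 2.06e-06). Fen1, the flap nuclease that acts just before it, read 0.81, 0.84 and 0.84 in vector and 0.87, 0.88 and 0.89 in knockdown cells. The knockdown values were all slightly higher, by 0.05 ± 0.04, with no call (limma, adjusted p = 0.366), and the sign turned to -0.09 with median centring and -0.22 with scaling between arrays.

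Of the 4 genes grouped under chromatin assembly and duplication, 2 fell (Chaf1a and Chaf1b), 1 rose (Slbp) and 1 did not pass the test (Uhrf1). Chaf1a, the large subunit of the histone chaperone CAF-1, read 0.63, 0.62 and 0.63 on the vector arrays and 0.23, 0.01 and 0.04 on the knockdown arrays. Its knockdown 1 value was the highest of the 3 yet below every vector value, and the difference was -0.54 ± 0.06 (SE, n = 3 per group; limma, adjusted p = 0.000184). Chaf1b, a second subunit, read 0.80, 0.77 and 0.80 in vector and 0.49, 0.45 and 0.41 in knockdown cells, a difference of -0.34 ± 0.04 (limma, adjusted p = 0.000347), which was not called with Cy5 alone (-0.38; limma, adjusted p = 0.0757; lowest over 21 alternatives 9.03e-05). Slbp, which binds the stem-loop of replication-dependent histone mRNAs, read 0.00, -0.02 and 0.00 in vector and 0.30, 0.37 and 0.41 in knockdown cells. It was higher on every knockdown array, by 0.37 ± 0.05 (limma, adjusted p = 0.000309), and stayed called higher in all 21 alternatives (adjusted p 5.9e-05 to 0.00894). Uhrf1, which recruits the maintenance methyltransferase to newly copied DNA, read -1.51, -1.51 and -1.54 in vector and -1.78, -1.62 and -1.48 in knockdown cells. Those groups overlapped, and the difference was -0.11 ± 0.07 (limma, adjusted p = 0.289), turning to 0.37 with scaling between arrays (limma, adjusted p = 0.328) and called at -0.22 with median centring (limma, adjusted p = 0.0323; range over 21 alternatives 0.0323 to 0.734).

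**Figure D4:**
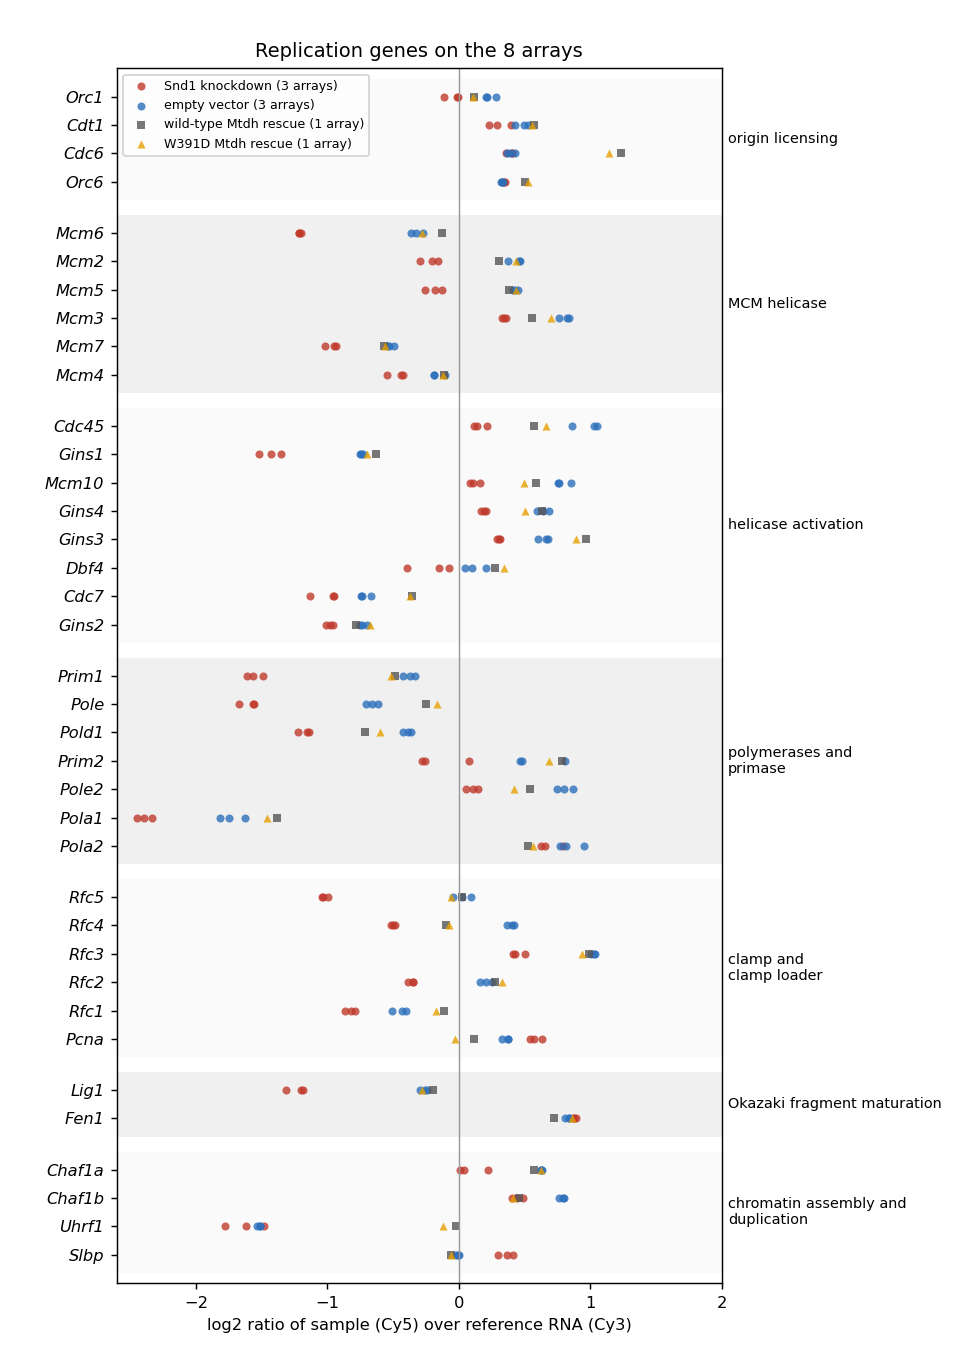
Log2 ratio of sample over reference RNA for each of the 37 genes on each of the 8 arrays, grouped by role. Each point is 1 array, coloured by group. The 3 knockdown points lie left of the 3 vector points for 30 genes and right of them for Pcna, Slbp and Fen1, and the groups overlap for Orc6, Cdc6, Pola2 and Uhrf1.

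Other replication genes, 41 of 42 listed and found on the array, gave 32 lower, 4 higher and 5 not called, with a median difference of -0.51. The smallest adjusted p-values belonged to Pclaf, a Pcna-binding protein (-1.59 ± 0.05 SE; limma, adjusted p = 2.22e-07), the cohesin acetyltransferase Esco2 (-1.25), the single-strand binding subunit Rpa3 (-1.46), the origin firing factor Ticrr (-1.16), the alternative clamp loader subunit Chtf18 (-0.80) and the small polymerase delta subunit Pold4. Pold4 was higher by 0.89 ± 0.05 (SE, n = 3 per group; limma, adjusted p = 2.91e-06), while the catalytic subunit Pold1 fell by 0.78. The small polymerase epsilon subunit Pole4 was also higher, by 0.45, as were Orc4 by 0.17 and the histone chaperone subunit Supt16 by 0.14. Genes of deoxynucleotide supply had 8 of 11 lower and 2 higher, with a median of -0.48. For genes of the spindle and mitosis 20 of 20 were lower, 13 of them by at least 2-fold, with a median of -1.09, against 2 of 37 by at least 2-fold and -0.47 for the replication genes. The difference between these lists was not tested.

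In the second experiment the W391D and wild-type rescue arrays differed by at most 0.15 at the brightest probe of each of the 37 genes. With 1 array in each group there was no test. The dimmer Cdc6 probe differed by more, reading 2.115 with wild-type Mtdh and 1.92 with the mutant (-0.196). The arrays were on different slides, so slide and Mtdh form cannot be told apart. At the brightest probes, W391D minus wild type had a median of -0.02 and ran from -0.15 to 0.15. Of the 37 genes 15 were above zero, against 49.7% of all features. None of the 37 genes passed 1.5-fold, which 22 of 27272 features (0.0807%) did upwards and 24 (0.088%) downwards. Among the brightest probes the largest differences were in Mcm6 and Mcm3. Mcm6 read -0.13 with wild-type Mtdh and -0.28 with the mutant, and Mcm3 read 0.56 and 0.70. Pcna read 0.12 with wild-type Mtdh and -0.03 with the mutant, Fen1 read 0.72 and 0.86, and Mcm2 read 0.31 and 0.44. Of these 5 genes, Mcm6 and Pcna read lower and Mcm3, Fen1 and Mcm2 higher with the mutant under loess correction, while median centring moved the median of the 37 genes to -0.12. Prim1, which fell by 1.18 in knockdown cells, read -0.48 and -0.51. Both values of Prim1 were far above those of the knockdown arrays.

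**Figure D5:**
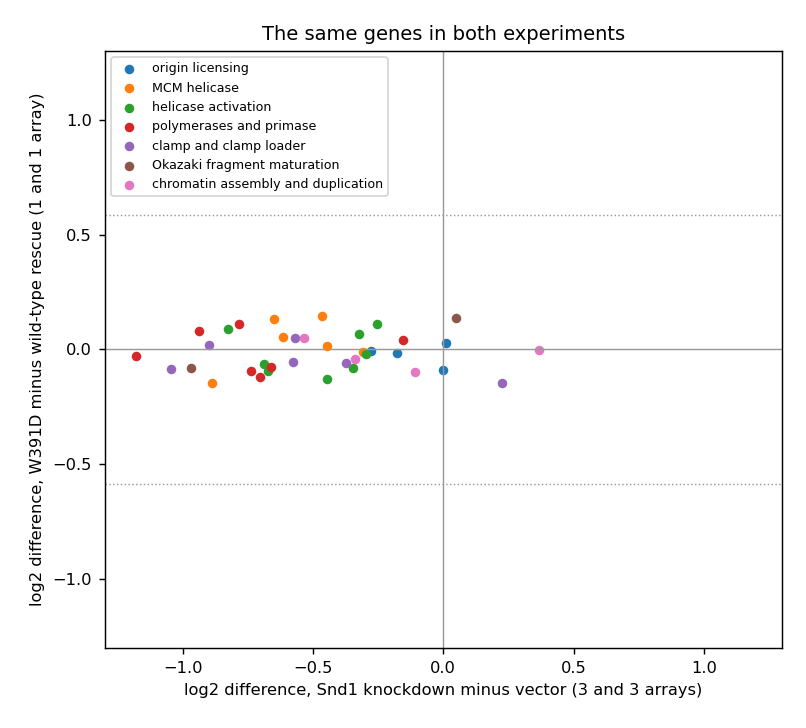
For each of the 37 genes, the difference knockdown minus vector (x axis, log2) against the difference W391D rescue minus wild-type rescue (y axis, log2, 1 array each, no error available). Points are brightest probes and spread from -1.18 to 0.37 along the x axis and only from -0.15 to 0.15 along the y axis.

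Across all 8 arrays, the 3 knockdown arrays lay below the other 5 for 29 of the 37 genes, an order shown by 16.5% of all features, and above them for Pcna, Fen1 and Slbp (18% of features). Since that order holds the knockdown and vector comparison within it, it adds only where the rescue arrays fall. Rescue cells lay above all 3 vector arrays for 12 genes (32.7% of features) and below them for 14 (26.1% of features), with a median difference of -0.03 against 0.02 over all features. The rescue mean was below the vector mean for 20 of the 37 genes and for 46.3% of all features. Uhrf1 stood far from vector cells, at -0.02 and -0.12 in the rescue cells against -1.54 to -1.51, and Cdc6 followed, at 1.23 and 1.14 against 0.36 to 0.43. Rfc4 was on the other side, at -0.10 and -0.08 against 0.36 to 0.42. Chaf1b, at 0.46 and 0.42 in the rescue cells, lay among its knockdown values. Tumour line, Mtdh state and slide cannot be told apart in this comparison. Against the reference RNA, the median log2 ratio of the 37 genes was 0.34, 0.33 and 0.32 on the vector arrays, -0.12, -0.18 and -0.25 on the knockdown arrays, and 0.28 and 0.33 with wild-type and W391D Mtdh. These levels depend on the dye correction, since no dyes were swapped, and with median centring the knockdown group median was 0.61 and the vector group median 1.28.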

How the data were processed

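RNA from 8 samples was hybridised with a common reference to Agilent mouse arrays in 2 colours. Per the file headers, the deposited files hold spot intensity in both channels and the authors' log10 ratio from Agilent Feature Extraction 11.0.1.1, while the submitters' processing notes name 9.5.3.1. The deposited series table holds log2 ratios, which followed each array's own scanner log ratios (r between 0.988 and 1 over 41156 probes).

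Median intensities were corrected with normexp (offset 50) and loess in limma 3.58.1 (R 4.3.3). Control spots and outlier spots were left out, and spots of a probe were averaged. Each gene is its brightest probe. Features well above background in Cy5 on at least 3 of 6 arrays were tested with lmFit and eBayes, adjusted by Benjamini-Hochberg over 25904 features and called at 0.05. The number of arrays limits the precision. The fit was tried on simulated arrays with independent noise and no slide effect, so that trial does not cover slide effects in these arrays.

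Probe names come from RefSeq accessions (27668 of 41174 probes named, 18883 symbols). The 37 genes and all lists were chosen with earlier results of these data known. Values on every array are given for the 3 genes of smallest p among those called in each role, genes called higher, genes whose probes disagree in sign or call, the 5 largest rescue differences, and Snd1. Prim2, Uhrf1 and the rescue values of Prim1, Uhrf1, Cdc6, Rfc4 and Chaf1b were added after their values were seen, and so was the choice of promoters printed.

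Deviations from the group means correlated at 0.596, 0.325 and 0.337 between same-numbered arrays, which met the rule for pairing by number. Differently numbered arrays of the same slide correlated at 0.39 and 0.244, and arrays of different slides at -0.498 to -0.376, so pairing by number and a shared slide cannot be told apart, and each was used as a block. Alternatives covered background correction, normalization, the probe filter and summary, blocks for replicate or slide, array weights, the threshold and each array left out. Motifs were searched in RefSeq windows of 300 bases (GRCm38.p6).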

Additional observations from a re-analysis of the deposited data

How the results depend on the processing

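Of 851 values, 37 genes under 23 settings, 801 were counted as unchanged, 23 lost the call, 7 gained it, 10 turned sign and 10 moved without a test. Unchanged meant the same direction and the same side of the threshold where a test was run. For 27 of the unchanged values, from the first slide alone with 1 array per group, there was no test and so no threshold. Under every setting 16 genes were counted as unchanged. Genes called lower numbered 28 to 31 in every setting but scaling between arrays (21). Leaving out each array in turn gave 29 to 30 lower, a median of -0.49 to -0.45 and 10039 to 11446 features called. With the replicate number as a block, 13007 features were called, 31 of the 37 genes were lower and 2 higher; Pola2 was the 1 call it changed. Pcna was not called with median centring, scaling between arrays or Cy5 alone, which left 1 gene higher (Slbp) and medians of -0.65, -0.54 and -0.56. Cy5 alone called 3648 features higher. Signs turned with median centring for Orc6 (-0.07) and Fen1 (-0.09), and with scaling between arrays for Snd1 (0.02), Orc6 (-0.10), Gins2 (0.02), Fen1 (-0.22) and Uhrf1 (0.37). Cdc6 lay near zero and turned on the second slide alone (0.03), with array weights (0.02), without knockdown 1 (0.01) and without vector 1 (0.02), with a range of -0.02 to 0.02 as each array was left out. The cause of these changes was not tested. Levels against the reference moved most. The scanner log ratios and the series table gave -0.14 for knockdown and 0.41 for vector, median centring gave 0.61, 1.28, 1.07 and 0.94 for knockdown, vector, wild-type and W391D rescue, and the mean of all probes gave 0.29 for W391D. With median centring W391D minus wild type was -0.12 and rescue minus vector -0.11. The rescue pair has no replicates, so no error can be given for it.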

Other observations

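Over the 8 arrays, the genes whose log2 ratios followed Prim1 most closely, among 15963 genes compared, were Cdca3 (Pearson r = 0.999), Sgo1, Ndufs6, Srek1ip1 and Pclaf (each 0.998). Those closest to Mcm2 were Nsun6 (0.997), Haus3, Mcm5 and Anxa3 (each 0.995) and Ncaph (0.994), so 1 subunit of the same ring was among them. Those closest to Pcna were Tnfrsf22 and Abhd2 (each 0.995), and Gabarapl1, Washc2 and 1700123O20Rik (each 0.994), all with higher means in knockdown than in vector cells, by 0.22 to 0.54. The arrays share 2 tumour lines and the contrast of knockdown with vector, so these values are a description.

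Adipocyte markers were called higher in 3 of 6 genes, with a mean log2 ratio of 0.54 to 0.60 in knockdown and 0.12 to 0.19 in vector cells. The largest of these differences was 1.64, for Plin4, and the median over the 6 was 0.21. Leukocyte markers had overlapping means, -1.40 to -1.37 and -1.42 to -1.35, with 1 of 8 higher and 2 lower. Basal epithelial markers had 2 of 7 higher and 3 lower, and endothelial markers 2 of 6 in each direction, Tek being not well above background on any of the 6 arrays. Beside these counts, 23.6% of all features tested were called higher and 21.1% lower.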
